A study of Mus musculus with 8 samples.

Results

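The receptors for steroid hormones, retinoic acid and vitamin D were followed in 2D and 3D cultures of mouse adipose-derived stem cells (ADSCs). The 9 genes were chosen by symbol, without use of their values, among the 24346 genes listed in each library, and all 9 were above 0 in at least 1 library. They encode the estrogen receptors (Esr1, Esr2), the progesterone receptor (Pgr), the glucocorticoid receptor (Nr3c1), the mineralocorticoid receptor (Nr3c2), the vitamin D receptor (Vdr) and the retinoic acid receptors alpha, beta and gamma (Rara, Rarb, Rarg). Total RNA was sequenced in 8 libraries of primary cultures, 1 for each mouse and culture format. Each format had 4 libraries. Mice 2, 3, 4 and 5 were the donors of the 2D cultures. Mice 1, 4, 5 and 7 were those of the 3D cultures, which makes 4 and 5 the mice with a library of each. All mice were wild-type BALB/c males, 12 weeks old, and the cells were isolated from the gonadal fat. The 3D cultures were grown in Matrigel, a basement membrane gel in which the cells form organoids, and the 2D cultures in the conventional way. The medium and passage of each sequenced culture are not given in the sources used here, so culture format and medium cannot be told apart. The title and the group label place the library of mouse 1 among the 3D cultures, while its short description carries a code without the culture format that the other descriptions have.

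These receptors are transcription factors that a small lipid-soluble ligand switches on. The steroid receptors wait for their hormone in a complex with heat shock proteins and then bind DNA as homodimers, at 2 mirrored half-sites. The retinoic acid and vitamin D receptors pair with a retinoid X receptor (RXR) on repeated half-sites, and exchange corepressors for coactivators when the ligand binds. Cells of fat tissue are targets of glucocorticoids, which promote the formation of adipocytes, whereas retinoic acid is known to restrain it.

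The libraries were about 14.5 to 17.4 M fragments (M, 1e6) deep, as estimated from the steps between low values, and between 15378 and 16134 genes were above 0. The marker genes of the labelled stromal cell type were nearly lost in 3D, where their summed FPKM (fragments per kilobase of transcript, scaled to library depth) was 5.14 to 9.47 against 1860 to 4246 in 2D, and all 10 were lower. Markers of epithelial cells summed to 2012 to 2482 FPKM in 3D and 3.15 to 658 FPKM in 2D, with 9 of 10 higher. Multiciliated cell markers reached 106 to 360 FPKM in 3D, with the highest sum in mouse 1, against 0.929 to 1.51 FPKM in 2D. Of these 5 markers 4 were called higher, and Foxj1 had the largest 3D mean, 200 ± 108 quantile-normalized FPKM. Dnah5 was near 0 in both cultures, with normalized means of 0.00742 FPKM in 2D and 0.0259 FPKM in 3D (limma adjusted p = 0.397). Mesothelial markers summed in 2D to 917 FPKM for mouse 3 and to 2371 FPKM for mouse 4, against 29.3 to 31.3 FPKM for mice 2 and 5, and in 3D to 76.6 to 158 FPKM. Krt19 was the single mesothelial marker called higher in 3D, at 150 ± 49.4 quantile-normalized FPKM there and 48.6 ± 40.4 in 2D (limma adjusted p = 0.0190). The other 6 tested were not called and had negative log2 differences. Their 3D means were 0.0110 to 0.326 normalized FPKM, apart from Msln at 11.4. Markers of epididymal epithelium summed to 5.66 FPKM for mouse 1 in 3D and to 0.102 to 0.620 FPKM in the others, and its defining genes Lcn5, Adam7 and Spag11b were at 0. Endothelial (0.0540 to 6.37 FPKM) and adipocyte (0 to 0.136 FPKM) markers were low in every library, with Tie1, Adipoq and Lep at 0, and macrophage markers ranged from 1.32 to 38.6 FPKM. The part of these marker genes in the receptor values below was not tested, and in bulk RNA fewer cells of a type and less RNA per cell cannot be told apart.

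Nr3c2 had the smallest adjusted p of the 9 receptors, rising from near the limit of detection in 2D to several FPKM in each 3D library. Nr3c1 and Rarg were lower in 3D, and the remaining receptors did not pass the test. At an adjusted p below 0.05 (limma, Benjamini-Hochberg over 18862 genes), 1 of the 9 receptors was higher in 3D and 2 were lower, with 21.2% of all genes tested higher and 20.3% lower. The libraries of the cultures did not overlap for 2 receptors on the normalized scale, Nr3c2 and Rarg, against 42.5% of all genes tested. The log2 differences ranged from -1.43 to 2.23. Their median was 0.01, which is the value of Esr2, a gene at or under the detection floor in every library, and -0.13 over the 8 others, beside 0.00 for all genes. By a fold rule with the limits of the study (more than 2-fold up, or to less than 0.5 of the 2D level, at an unadjusted p below 0.05), set here on the log2(FPKM + 1) scale, which low genes pass less easily than on FPKM itself, Nr3c2 was higher and Rarb lower, beside 10.6% of all genes that rose and 11.0% that fell. A fit with a block for each mouse, which rests on the pairs of mice 4 and 5 with 1 residual degree of freedom, called 0 receptors (limma). At an unadjusted p below 0.05 that blocked fit still held 1 receptor higher and 3 lower, and over all genes it called 0, with 5216 at an unadjusted p below 0.05.

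**Figure D1:**
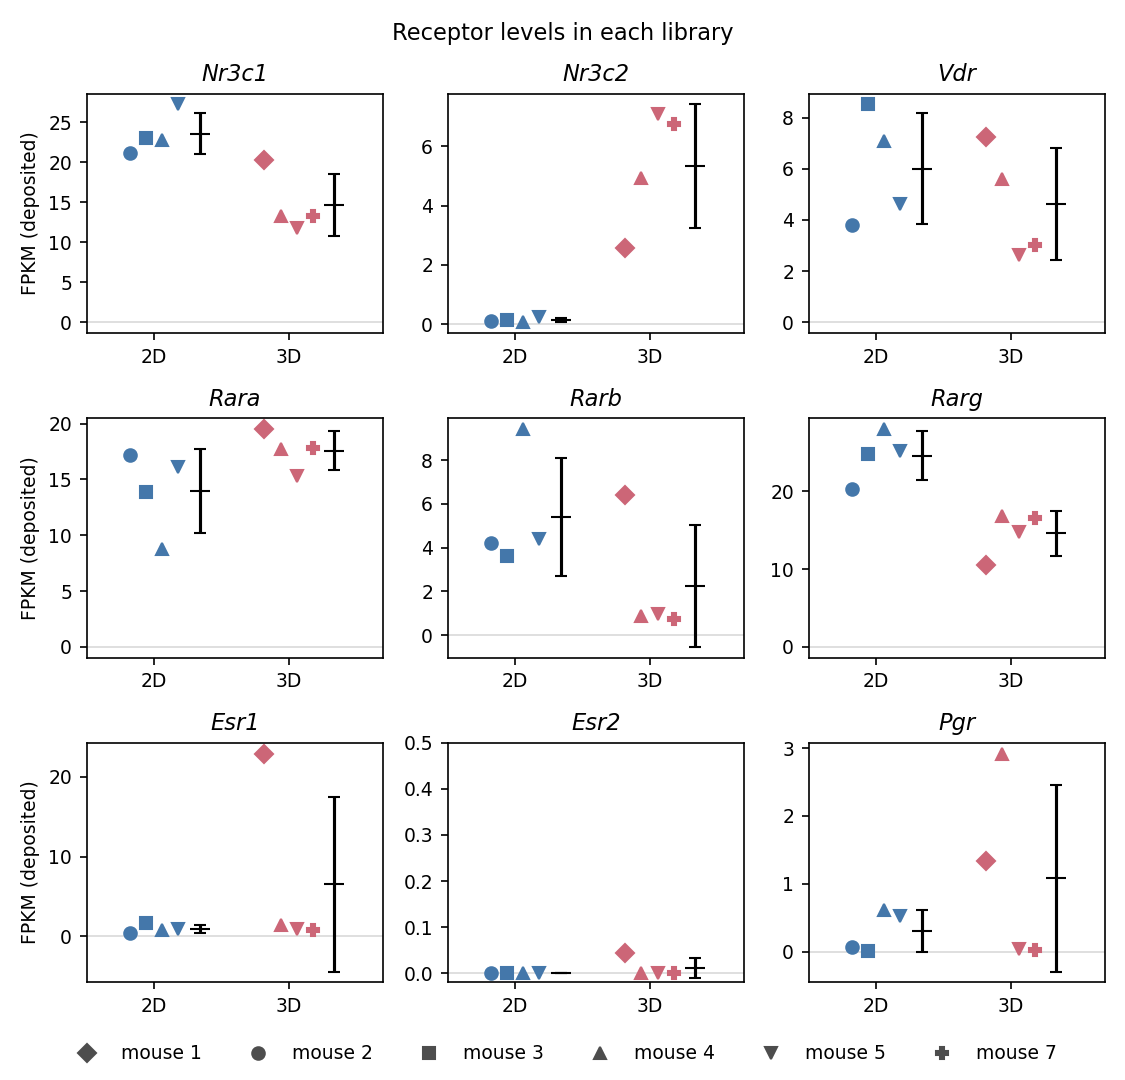
Deposited FPKM (linear axis) of the 9 receptors in each library, by culture format; symbols give the mouse, and the horizontal bar and whiskers the mean and SD of 4 libraries. Nr3c2 lies between 0.0702 and 0.237 FPKM in 2D and between 2.55 and 7.09 FPKM in 3D, while Esr1 and Rarb are high in the 3D library of mouse 1 only among the 3D libraries.

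Nr3c2 (chr8:76899442-77245012, plus strand) encodes the mineralocorticoid receptor, which binds aldosterone and also glucocorticoids and controls sodium transport in tight epithelia. Its deposited level was 0.0880, 0.129, 0.0702 and 0.237 FPKM in 2D for mice 2, 3, 4 and 5, or about 7.2 to 22.9 fragments. In 3D it was 2.55, 4.92, 7.09 and 6.77 FPKM in mice 1, 4, 5 and 7, or about 221 to 631 fragments. Every 3D library was above every 2D library, and mouse 1 was the lowest of the 3D libraries. The normalized level rose from 0.179 ± 0.139 to 4.84 ± 2.12 FPKM (SD, n = 4 each), 27.1 times the 2D mean. On the log2(normalized FPKM + 1) scale the difference was 2.23 (SE 0.30, limma adjusted p = 8.2e-04), and within mice 4 and 5 it was 2.39 and 2.45. The adjusted p was below 0.05 in 15 of 16 alternative settings and 0.111 in the exception, the fit with the mouse as a block, whose unadjusted p was 0.00419.

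Nr3c1 (chr18:39410545-39519421, minus strand) encodes the glucocorticoid receptor, which nearly all cells carry and through which cortisol and corticosterone act. The deposited values were 21.2, 23.1, 22.8 and 27.2 FPKM in 2D and 20.3, 13.2, 11.8 and 13.3 FPKM in 3D, in the same order of mice. The 3D library of mouse 1 was close to the 2D libraries and the other 3D libraries were well below them. The cultures were apart on the deposited scale but overlapped after normalization, where the 3D library of mouse 1 stood at 21.1 FPKM and the 2D library of mouse 2 at 19.9 FPKM. The normalized mean fell from 22.4 ± 2.16 to 14.8 ± 4.30 FPKM, a log2 difference of -0.59 (SE 0.18, limma adjusted p = 0.0305). The differences within mice 4 and 5 were -0.69 and -1.07. This call was less firm than that of Nr3c2: it held in 8 of 16 alternative settings, with an adjusted p between 0.00157 without the 3D library of mouse 1 and 0.153 with the mouse as a block. It was lost, at an adjusted p of 0.0577 to 0.0776, when any 1 of the 2D libraries of mice 3, 4 and 5 or the 3D libraries of mice 4, 5 and 7 was left out (limma).

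The 2 corticosteroid receptors therefore stood in a different ratio in the cultures. Nr3c2 made up 0.307 to 0.864% of the summed FPKM of both genes in 2D. In 3D its share was 11.2, 27.1, 37.6 and 33.8% in mice 1, 4, 5 and 7, so that the lowest 3D share was above the highest 2D share. The share of mouse 1 in 3D was 8.50% on the normalized scale. These shares were given no test because they combine members.

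**Figure D2:**
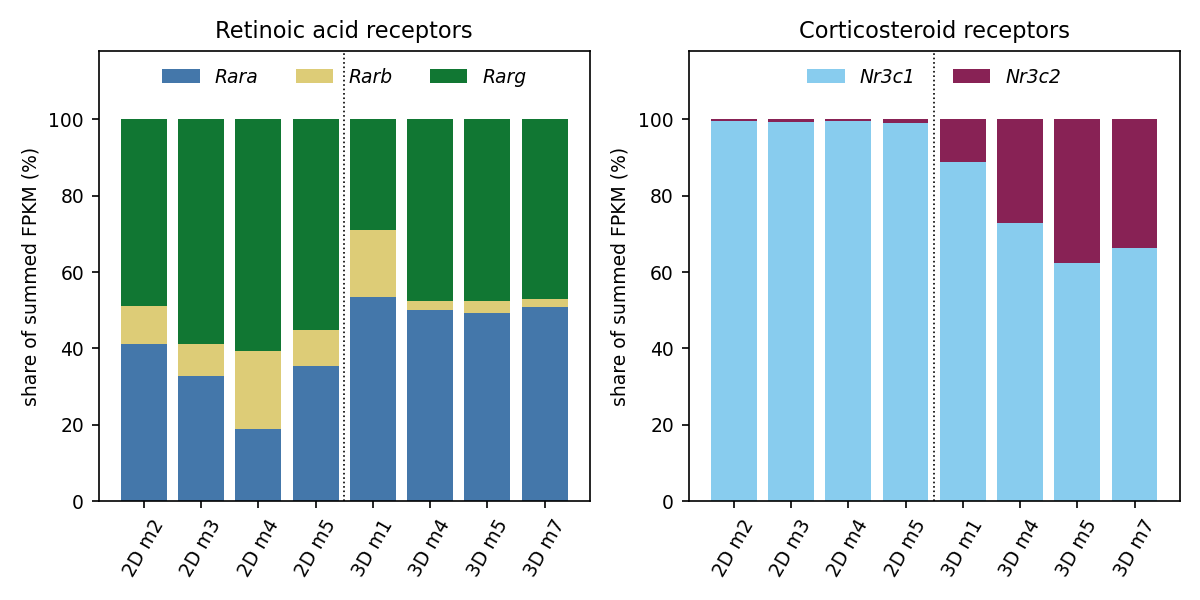
Share (%) of each gene in the summed deposited FPKM of the 3 retinoic acid receptors (left) and of the 2 corticosteroid receptors (right) in each library, with the mouse number after m and the 2D libraries left of the dotted line. Rara makes up 19.0 to 41.1% of the retinoic acid receptors in 2D and 49.4 to 53.6% in 3D, and Nr3c2 at most 0.864% of the corticosteroid receptors in 2D and at least 11.2% in 3D.

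Of 8 genes known to respond to corticosteroids, 5 were lower in 3D, 1 was higher and 2 were not called, beside 20.3% of all genes tested lower and 21.2% higher. The median log2 difference was -1.83, and 0.00 over all genes. The largest fall was that of Sgk1, the kinase that activates the epithelial sodium channel and responds to both receptors, which fell from 94.9 ± 2.16 to 2.87 ± 1.76 normalized FPKM (log2 difference -4.73, SE 0.28, limma adjusted p = 1.3e-05). Dusp1, a phosphatase that inactivates MAP kinases, fell from 41.1 ± 9.81 to 5.39 ± 3.03 normalized FPKM (log2 difference -2.91), and the 3D library of mouse 1 was the lowest at 0.875 FPKM. Klf9, a zinc finger transcription factor, fell from 30.5 ± 12.3 to 3.60 ± 0.645 normalized FPKM (log2 difference -2.70). The members Fkbp5, which lowers the hormone affinity of the receptor (log2 difference -2.47), and Tsc22d3, the anti-inflammatory protein GILZ (-1.20), were also called lower. All 5 fell without overlap between the cultures, which held in either direction for 42.5% of all genes tested. Scnn1a, the alpha subunit of the epithelial sodium channel and a classical mineralocorticoid target in epithelia, went the other way, from 0.433 ± 0.344 to 4.27 ± 3.48 normalized FPKM (log2 difference 1.71, SE 0.42, limma adjusted p = 0.0129). Its 4 3D libraries ranged from 1.63 to 9.37 FPKM, all above the highest 2D value of 0.786 FPKM. In mice 4 and 5 alone its call was lost (log2 difference 2.15, limma adjusted p = 0.102). Per1, a clock gene, had a log2 difference of -0.43 (adjusted p = 0.157, limma) and Zbtb16 one of -0.32 (adjusted p = 0.157, limma).

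**Figure D3:**
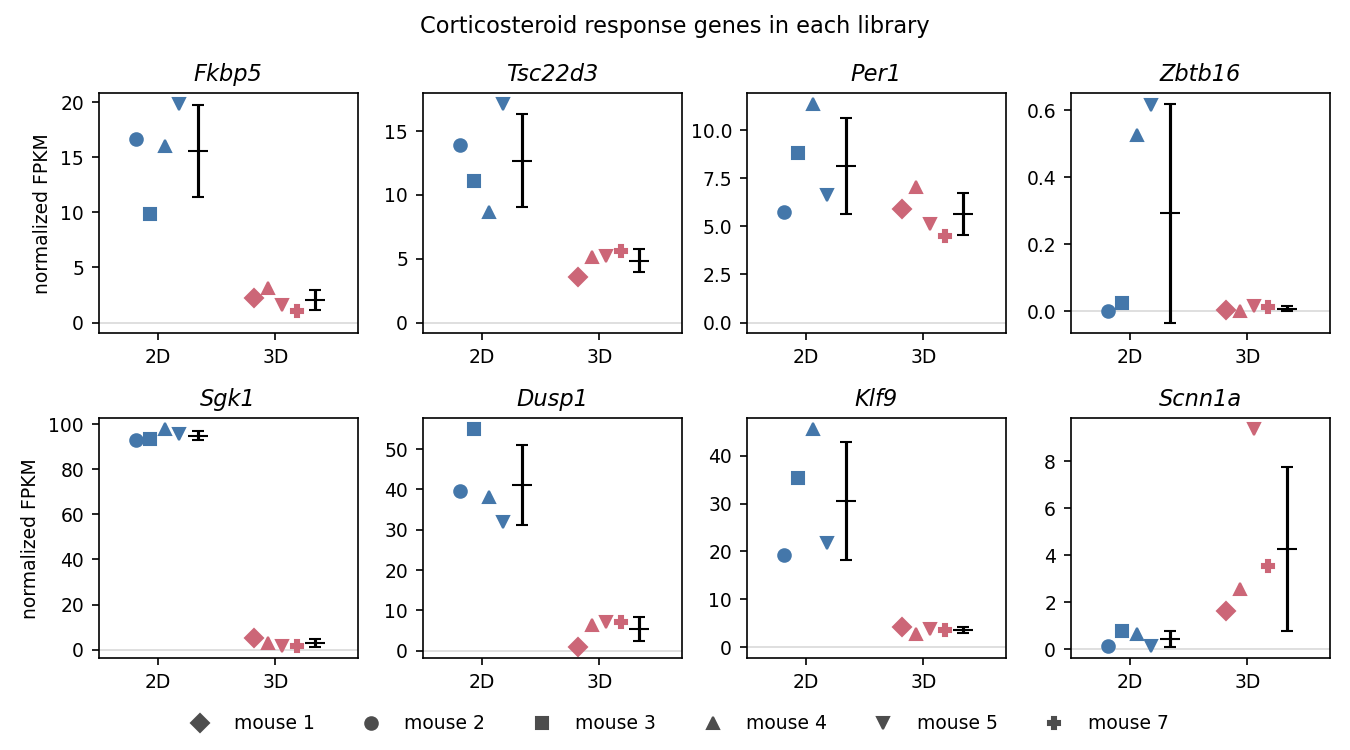
Normalized FPKM (linear axis) of 8 corticosteroid response genes in each library, by culture format; symbols give the mouse, and the horizontal bar and whiskers the mean and SD of 4 libraries. Sgk1 lies between 92.9 and 97.7 FPKM in 2D and between 1.47 and 5.31 FPKM in 3D, and Scnn1a is the single member called higher in 3D.

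Of the retinoic acid receptors, Rarg was the one that passed the test. Rarg (chr15:102234938-102257517, minus strand), the gamma form known for its role in skin and cartilage, was the receptor with the highest mean in 2D. Its deposited values were 20.4, 24.8, 28.0 and 25.1 FPKM in 2D and 10.5, 16.8, 14.7 and 16.5 FPKM in 3D. All 3D libraries were below all 2D libraries, and mouse 1 was the lowest. The normalized mean fell from 23.4 ± 3.03 to 14.9 ± 3.42 FPKM (log2 difference -0.64, SE 0.18, limma adjusted p = 0.0247), and the differences within mice 4 and 5 were -0.57 and -0.63. The call held in 9 of 16 alternative settings, and the adjusted p was 0.148 with the mouse as a block and between 0.0221 and 0.0603 when 1 library was left out. The adjusted p rose above 0.05, and the call was lost, without the 2D library of mouse 3, 4 or 5 or the 3D library of mouse 5. It was 0.0873 in mice 4 and 5 alone and 0.142 without the 2D libraries of both mice 3 and 4 (limma).

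Rara (chr11:98927818-98974942, plus strand), the broadly expressed alpha form, was measured at 17.2, 13.9, 8.76 and 16.1 FPKM in 2D and 19.5, 17.7, 15.3 and 17.8 FPKM in 3D (deposited values). The ranges overlapped, and the 2D library of mouse 4, one of the libraries with mesothelial markers, was the lowest of all. The normalized means were 13.8 ± 3.36 and 18.2 ± 1.90 FPKM, a log2 difference of 0.40 (SE 0.18, limma adjusted p = 0.123). Within mouse 4 the difference was 0.95, and within mouse 5 it was -0.01.

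Rarb (chr14:16430839-16819156, minus strand) encodes the beta form, which is itself a textbook target of retinoic acid through a response element just upstream of one of its start sites. The element is 2 copies of the half-site GTTCA in the same orientation, 6 bases apart, and it is shown because receptor pairs bind such elements. The 120 bases before that start site (RefSeq, GRCm38.p6, chr14:16575477-16575596, minus strand, of the reference strain and not of BALB/c) are printed 5′ to 3′ with the element in capitals.

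Rarb: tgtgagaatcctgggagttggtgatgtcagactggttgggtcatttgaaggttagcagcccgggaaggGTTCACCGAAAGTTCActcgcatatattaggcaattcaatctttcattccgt

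The element lay 52 to 37 bases before the start site. On both strands of windows from 250 bases before to 50 bases after each start site, it was found in 1 of 13 windows of the receptors and in 25 of 32851 windows of all genes (0.0761%). The searched pattern is that of the known Rarb element, so the match among the receptors was fixed before the search. The share of all genes tells how rare the pattern is and is no measure of enrichment among the receptors. The searches for AGGTCA repeats 5 bases apart (3 windows of all genes, 0.00913%), the estrogen response core GGTCA and TGACC 3 bases apart (23 windows, 0.0700%), the glucocorticoid response core GAACA and TGTTC 3 bases apart (19 windows, 0.0578%) and GTTCA repeats 4 bases apart, a vitamin D response type (17 windows, 0.0517%), found 0 of the 13 receptor windows each. A window was present for 8 of the 9 receptors, and a match is a description of letters and not of binding.

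The deposited level of Rarb was 4.22, 3.60, 9.42 and 4.39 FPKM in 2D, and 6.40, 0.872, 0.953 and 0.713 FPKM in 3D in mice 1, 4, 5 and 7. The 3D library of mouse 1 lay within the 2D range, and the other 3 lay below every 2D library. The 2D library of mouse 4, with the highest mesothelial marker sum, held the highest value. That of mouse 3, the other 2D library with mesothelial markers, held the lowest of the 2D values. The normalized means were 5.88 ± 2.61 and 1.98 ± 2.46 FPKM (log2 difference -1.43, SE 0.49, limma adjusted p = 0.0506), just outside the threshold. Without the 3D library of mouse 1 the difference was -1.93 (limma adjusted p = 0.00206), and without the 2D libraries of mice 3 and 4 it was -1.30 (limma adjusted p = 0.157). The differences within mice 4 and 5 were -2.63 and -1.72. The exons of Rarb share 1793 of 5265 bases with the antisense gene Top2b, a DNA topoisomerase, and whether strand was used in counting is not given in the sources used here. Top2b was at 32.1 to 38.3 FPKM in 2D, 30.4 FPKM in 3D for mouse 1 and 19.5 to 25.8 FPKM in the other 3D libraries, so the 3D library of mouse 1 was the highest of its format for both genes, and the part of Top2b in the Rarb values was not tested.

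Within each library, the summed deposited FPKM of the 3 genes was 41.7 to 46.2 in 2D and 31.0 to 36.4 in 3D. Rara made up 41.1, 32.8, 19.0 and 35.3% of it in 2D and 53.6, 50.1, 49.4 and 50.8% in 3D, a mean of 32.1 ± 9.40 against 51.0 ± 1.82% (SD, n = 4 each). Rarg made up 55.8 ± 5.23% in 2D and 42.7 ± 9.26% in 3D, and was the leading gene in each 2D library. Rarb made up 8.50 to 20.4% in 2D, 17.6% in the 3D library of mouse 1 and 2.03 to 3.07% in the other 3D libraries. The shares of Rara and Rarg did not overlap between the cultures, although that of Rarg did so on the normalized scale.

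Among 8 genes known to respond to retinoic acid, 2 were lower in 3D and 6 were not called, a share near the 20.3% of all genes called lower. The median log2 difference was -1.29, and 0.00 over all genes. Cyp26b1, which breaks down retinoic acid, fell from 2.11 ± 1.83 to 0.0494 ± 0.0247 normalized FPKM (log2 difference -1.39, SE 0.37, limma adjusted p = 0.0186). The library of mouse 1 stood apart in several of the others, as it did for Rarb. Dhrs3, a retinaldehyde reductase, reached a normalized level of 61.5 FPKM there, against 33.5, 3.88 and 5.62 FPKM for mice 4, 5 and 7 in 3D, and Crabp2, a carrier of retinoic acid to its receptors, reached 7.95 FPKM against 1.36, 0.182 and 0.189 FPKM. Both genes, chosen after their values were seen, had an adjusted p above 0.05 over all libraries (Dhrs3 0.0863, Crabp2 0.0741, limma). Without the 3D library of mouse 1, 4 of the 8 genes were called lower, the added ones being Dhrs3 (log2 difference -2.73, limma adjusted p = 0.0207) and Crabp2 (-2.70, limma adjusted p = 0.0145).

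Vdr (chr15:97854425-97910630, minus strand), the receptor for calcitriol, was present in all libraries and did not pass the test. Its deposited values were 3.80, 8.51, 7.10 and 4.62 FPKM in 2D and 7.22, 5.62, 2.63 and 3.03 FPKM in 3D. The ranges overlapped, and the highest 2D values were those of mice 3 and 4, the libraries with mesothelial markers. The normalized means were 6.49 ± 1.92 and 4.24 ± 2.02 FPKM (log2 difference -0.56, SE 0.32, limma adjusted p = 0.199). The difference was -0.25 without the 2D libraries of mice 3 and 4, and the adjusted p ranged from 0.0847 to 0.623 over the alternative settings.

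Of 4 genes known to respond to vitamin D, 2 were higher in 3D and 2 were not called, beside 21.2% of all genes higher, and the median log2 difference was 1.95. Cyp24a1, the enzyme that inactivates calcitriol, was at 0 in all 2D libraries and in 3D at a normalized 15.9, 1.64, 3.41 and 1.60 FPKM in the order of mice 1, 4, 5 and 7 (log2 difference 2.25, SE 0.57, limma adjusted p = 0.0148). Against a floor of 3 fragments per 2D library it was at least 112-fold higher, and mouse 1 held the highest value, without which the bound was 47.3-fold. Without the 2D libraries of mice 3 and 4 the adjusted p of Cyp24a1 was 0.0722 (limma). Trpv6, the calcium channel of absorptive epithelia, was at or under the floor in 2D and at 4.37 to 27.2 normalized FPKM in 3D, at least 247-fold higher (log2 difference 3.85, SE 0.47, limma adjusted p = 5.2e-04). S100g, the calcium-binding protein calbindin-D9k, reached a normalized 13.4 FPKM for mouse 1 in 3D, with the other 3D libraries at 0.217 to 0.473 FPKM (log2 difference 1.17, limma adjusted p = 0.267). Spp1, which encodes osteopontin, had a log2 difference of 1.65 (limma adjusted p = 0.122).

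Esr1 (chr10:4611593-5005614, plus strand), the estrogen receptor alpha, was low in 7 of the 8 libraries and high in 1. The deposited values were 0.386, 1.60, 0.722 and 0.920 FPKM in 2D and 22.9, 1.37, 0.894 and 0.829 FPKM in 3D in mice 1, 4, 5 and 7. The 3D library of mouse 1 held about 2130 fragments of the gene, whereas the others held 41.1 to 171. The other 3D libraries lay within the 2D range. The log2 difference was 0.83 (SE 0.85, limma adjusted p = 0.461), and without the 3D library of mouse 1 it was -0.10 (limma adjusted p = 0.734). That library also had the highest sums of multiciliated and epididymal markers, whose part in the Esr1 value was not tested.

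Esr2 (chr12:76120419-76177259, minus strand), the estrogen receptor beta, was listed at 0 in 7 libraries and at 0.0441 FPKM in the 3D library of mouse 1. That value stands for about 2.17 fragments and is under the floor of 0.0609 FPKM, so the gene was not detectable at this depth. Pgr (chr9:8899833-8968611, plus strand), a classical target of estrogen receptor alpha, varied among the libraries of both cultures. Its deposited values were 0.0680, 0.00827, 0.610 and 0.532 FPKM in 2D and 1.33, 2.92, 0.0390 and 0.0272 FPKM in 3D. The 2D library of mouse 3 and the 3D library of mouse 7 were under the floor, and the ranges overlapped. The log2 difference was 0.30 (SE 0.42, limma adjusted p = 0.596), and it was 1.16 within mouse 4 and -0.81 within mouse 5.

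Of 7 estrogen response genes tested, 3 were higher in 3D, 1 was lower and 3 were not called, beside 21.2% of all genes higher and 20.3% lower, and the median log2 difference was 1.59. Ltf, the secreted iron-binding protein lactoferrin, was at 0 in 3 of the 2D libraries and at 0.0700 normalized FPKM in that of mouse 4, and at 208 to 1123 FPKM in 3D (log2 difference 9.11, SE 0.46, limma adjusted p = 5.6e-06). Xbp1, a transcription factor of secretory cells, rose from 57.1 ± 4.76 to 283.7 ± 89.9 normalized FPKM (log2 difference 2.23). Ctsd, the lysosomal protease cathepsin D, rose from 419 ± 164 to 1234 ± 385 normalized FPKM (log2 difference 1.59). The gene called lower was Cxcl12, a chemokine, with a log2 difference of -4.35 (limma adjusted p = 0.0447), whose libraries overlapped. Its call was lost without any 1 library other than the 3D library of mouse 1, at an adjusted p of 0.0566 to 0.109, and without an intensity trend, at 0.0539 (limma). Its normalized level was 102 FPKM for mouse 1 in 3D, with the other 3D libraries at 0.218 to 1.82 FPKM, and without that library the log2 difference was -5.91 (limma adjusted p = 8.3e-04). Areg, named after its values were seen, was instead lowest for mouse 1 in 3D, at 0.174 normalized FPKM against 3.06 to 6.43 FPKM. Its log2 difference was 1.61 (limma adjusted p = 0.0621), and 2.20 without that library (limma adjusted p = 0.00187). Greb1, an early target of the receptor in breast cells, was at 0.212 FPKM in the 3D library of mouse 1 against 0.106 to 1.11 FPKM in 2D (log2 difference -0.45, limma adjusted p = 0.0904), and Tff1 was at 0 in all libraries.

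**Figure D4:**
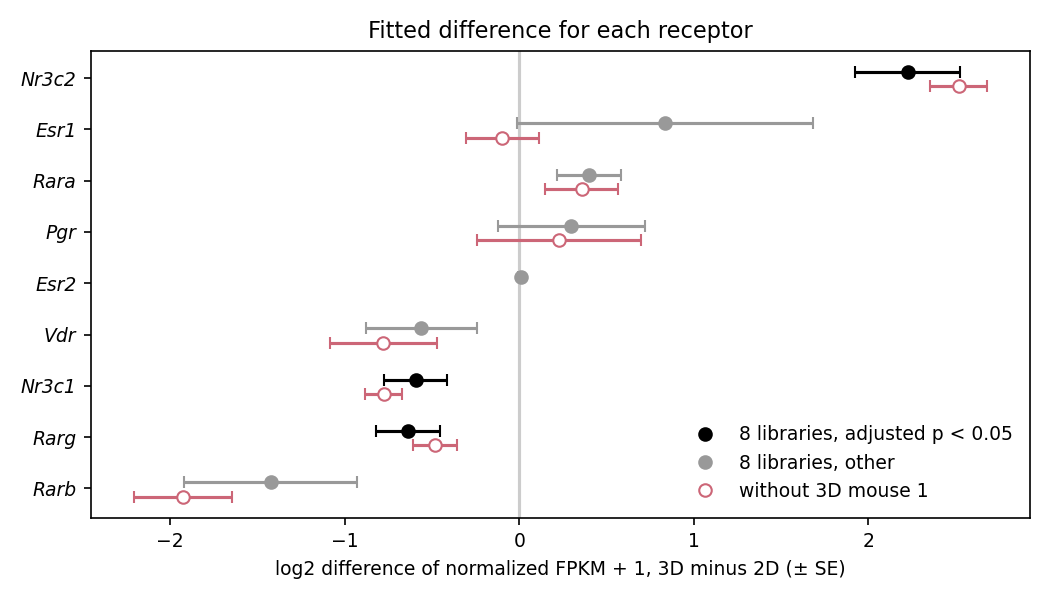
Fitted log2 difference of normalized FPKM + 1 between 3D and 2D (bars, SE) for the 9 receptors in all 8 libraries (filled, black where the adjusted p is below 0.05) and without the 3D library of mouse 1 (open). Esr1 moves from 0.83 to -0.10 and Rarb from -1.43 to -1.93 when that library is left out, whereas Nr3c2 moves from 2.23 to 2.52.

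Set side by side per length, the deposited levels of the receptors had another order in the cultures. In 2D the means were 24.6 FPKM for Rarg, 23.6 for Nr3c1, 14.0 for Rara, 6.01 for Vdr, 5.41 for Rarb, 0.906 for Esr1, 0.305 for Pgr, 0.131 for Nr3c2 and 0 for Esr2. The ranges of the neighbours Rarg and Nr3c1, Vdr and Rarb, Esr1 and Pgr, and Pgr and Nr3c2 overlapped, and those of the other neighbours did not. In 3D the order of means was Rara (17.6 FPKM), Nr3c1 (14.7), Rarg (14.6), Esr1 (6.51), Nr3c2 (5.33), Vdr (4.63), Rarb (2.24), Pgr (1.08) and Esr2 (0.0110), and every neighbouring pair overlapped. Nr3c2 thus stood next to last in 2D and above Vdr, Rarb and Pgr in 3D, while the place of Esr1 in 3D rests on the library of mouse 1.

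Of 10 RXR partners and other ligand-activated receptors tested, 4 were higher in 3D, 3 were lower and 3 were not called, beside 21.2% of all genes higher and 20.3% lower, and the median log2 difference was 0.03. Rxra, the partner of the retinoic acid and vitamin D receptors, rose from 8.71 ± 0.866 to 14.2 ± 2.94 normalized FPKM (log2 difference 0.63, SE 0.15, limma adjusted p = 0.0127), Rxrb had a log2 difference of 0.20 (limma adjusted p = 0.192), and Rxrg was at 0 in all libraries. Pparg, the master regulator of adipocyte formation, fell from 6.50 ± 1.92 to 0.253 ± 0.226 normalized FPKM (log2 difference -2.56, SE 0.23, limma adjusted p = 1e-04). Nr1h2, an oxysterol receptor, rose by 0.71 on the log2 scale, and Thrb, a thyroid hormone receptor, and Ppard, a fatty acid receptor, fell by 1.20 and 0.53.

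Coregulators, the proteins that receptors recruit to open or close chromatin, numbered 11, of which 8 were higher in 3D, 1 was lower and 2 were not called, beside 21.2% of all genes higher and 20.3% lower. Their median log2 difference was 0.56, and that of all genes 0.00. Nrip1, a corepressor of ligand-bound receptors known for its role in fat, rose from 8.98 ± 0.680 to 27.3 ± 4.74 normalized FPKM (log2 difference 1.49, SE 0.13, limma adjusted p = 8.9e-05). The corepressors Lcor and Ncor1 rose by 1.08 and 0.99, whereas Carm1, an arginine methyltransferase that acts as a coactivator, fell from 20.2 ± 1.94 to 9.36 ± 1.61 normalized FPKM (log2 difference -1.04). Of the 8 chaperones of the steroid receptor complex, 1 was higher, 2 were lower and 5 were not called, shares near those of all genes, with a median log2 difference of -0.13. On the deposited scale, without quantile normalization, 1 was higher and 6 were lower. Fkbp4, an immunophilin of the hormone-bound complex, rose from 63.7 ± 12.7 to 152 ± 17.2 normalized FPKM (log2 difference 1.25), while Hspa8 and Stip1 fell by 0.74 and 0.50.

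Among 12 enzymes that make or break down the ligands, 3 were higher in 3D, 1 was lower and 8 were not called, a share of higher genes near the 21.2% of all genes, and the median log2 difference was 0.17. Rdh10, which oxidizes retinol, rose from 6.82 ± 2.71 to 34.1 ± 6.86 normalized FPKM (log2 difference 2.20, SE 0.25, limma adjusted p = 3.4e-04). Aldh1a2, one of the listed enzymes that complete the synthesis of retinoic acid, fell from 9.98 ± 3.12 to 0.529 ± 0.568 normalized FPKM (log2 difference -2.87, SE 0.33, limma adjusted p = 3.6e-04). Aldh1a1, of the same family, was at 229 to 616 normalized FPKM in 3D and 4.20 to 945 in 2D. It was not called (log2 difference 3.10, limma adjusted p = 0.138), and neither was Aldh1a3 (-1.91, limma adjusted p = 0.142). Srd5a1, the steroid 5-alpha-reductase, rose from 3.08 ± 1.24 to 15.5 ± 7.58 normalized FPKM (log2 difference 1.96). Hsd17b2, which inactivates estradiol and testosterone, was at 0 in 2D and at 0.119 to 0.958 normalized FPKM in 3D, at least 4.43-fold higher against the floor, a bound of 2.64-fold once mouse 1 is left out (limma adjusted p = 0.0496). Its call was lost without any 1 of the 2D libraries or the 3D libraries of mice 1 and 7, at an adjusted p of 0.0912 to 0.115 (limma). Hsd11b1 and Hsd11b2, the enzymes that activate and inactivate glucocorticoids, had log2 differences of -0.61 and 0.30 (limma adjusted p = 0.0645 and 0.250). With the mouse as a block, limma called 0 genes in each of the 8 lists of pathway genes, and 2 to 7 genes of each list had an unadjusted p below 0.05.

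**Figure D5:**
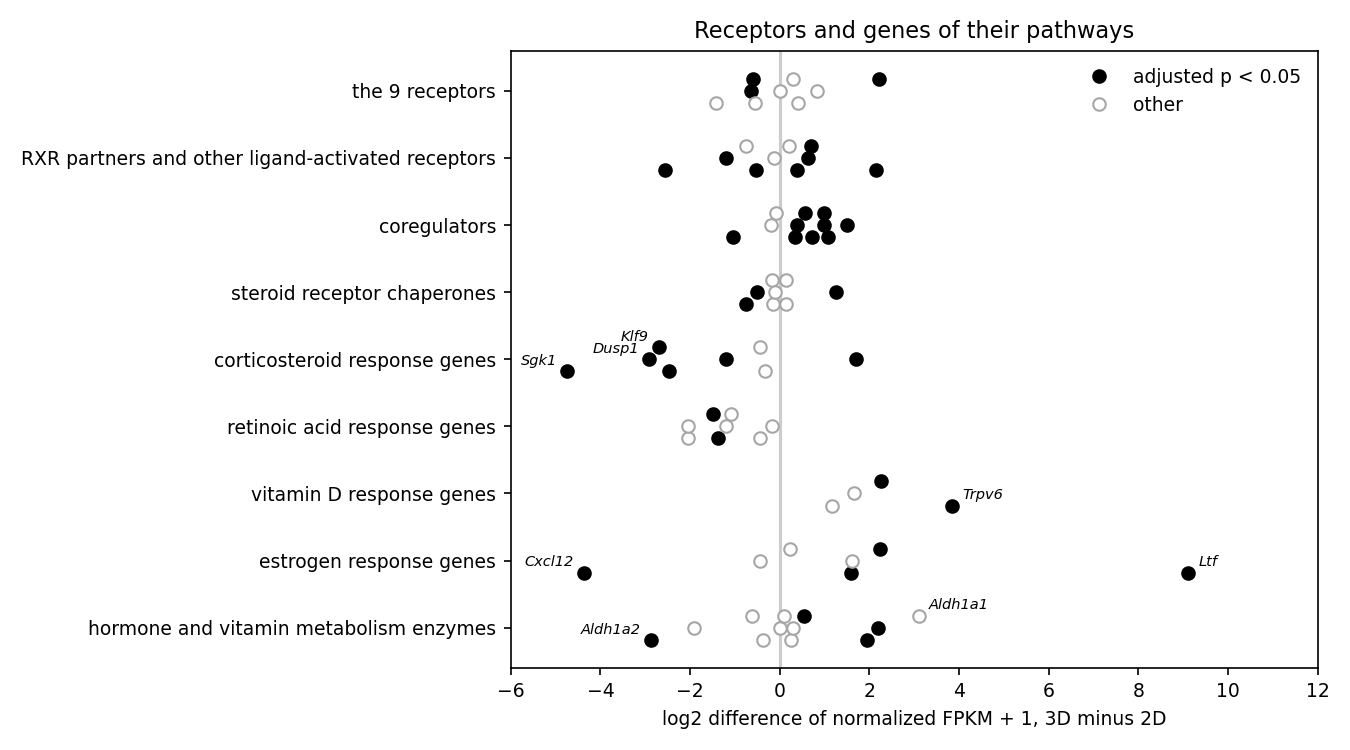
Fitted log2 difference of normalized FPKM + 1 between 3D and 2D for the 9 receptors and for the genes of 8 pathway lists, each dot 1 gene, filled where limma's adjusted p is below 0.05. The receptors range from -1.43 to 2.23, the corticosteroid response genes lie lower (median -1.83) and the coregulators higher (median 0.56); the vertical offset within a row carries no value.

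The genes with the pattern most like that of each called receptor were found by the root-mean-square difference of centred log2 values over the 8 libraries, among 12583 genes. For Nr3c2 these were 4732490B19Rik (0.179), Cbx6 (0.200), a Polycomb protein, and Itpr2 (0.218), a calcium release channel. For Nr3c1 they were Smo (0.107), the transducer of hedgehog signals, Rcn2 (0.107) and Sccpdh (0.113). For Rarg they were 1810062G17Rik (0.0987), 2210404O09Rik (0.105) and Plgrkt (0.111), a plasminogen receptor. The points share libraries and normalization, and the likeness is a description without a test.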

How the data were processed

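RNA was extracted with Trizol and made into directional libraries. Per the methods of the study, reads were trimmed with FASTX_Trimmer and BBMap and mapped with TopHat, and the authors computed the deposited FPKM values per gene with Cufflinks. The submitters' processing notes name mm10. The annotation and the use of strand in counting are not given in the sources used here. The files hold no read counts, and the quantile normalization that the methods name is not in the deposited values.

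Members and lists were chosen with earlier results of these data known. Of 24346 genes, 5484 at 0 in every library were left out and 18862 were quantile normalized and fitted as log2(FPKM + 1) with limma 3.58.1 in R 4.3.3, with an intensity trend, culture as the only term and Benjamini-Hochberg adjustment, after a test on simulated data. A fold on this scale understates the change of low genes. Named beside the receptors are, per list and direction, up to 3 genes with the largest difference among those called without overlap, and the 3 genes most like each called receptor. Others are named to complete a list or, where stated, after their values were seen. Some listed genes are counted but not reported by name. Coordinates are from GENCODE M21, where 23310 symbols (95.7%) matched.

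Depth was estimated from 875 single-transcript genes of at least 3000 bases, in which 64.9 to 77.8% of low values lay within 0.1 of a whole multiple of 1 fragment. The floor is 3 fragments over the longest transcript, and it covers counting error only. The mouse numbers pair libraries of the same animal. The deviations of the libraries of mouse 4 from their culture means correlated at -0.05 over 12580 genes and those of mouse 5 at -0.11, and the fit with a random mouse effect gave -0.04. The p-values measure the spread between the cultures of 6 mice.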

Additional observations from a re-analysis of the deposited data

Results flagged for a closer look

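In 6 of 71 groups of 4 libraries, 1 library stood farther from the others than Dixon's 95% critical value allows, and chance flags about 1 in 20 groups. In 3 of the 6 (Esr2, Ltf and Trpv6) the other libraries were at 0, so that any value above 0 meets this limit. In the 3D library of mouse 1 Esr1 was at 24.3 normalized FPKM, with the other 3D libraries at 0.759 to 1.18, and Rarb was at 5.68 normalized FPKM, with the others at 0.702 to 0.812. Esr2 was at 0.0258 normalized FPKM there, under the floor of 3 fragments, with the others at 0, and Dusp1 was at 0.875 normalized FPKM, with the others at 6.41 to 7.18. The 2D library of mouse 4 held Ltf at 0.0700 and Trpv6 at 0.00504 normalized FPKM, with the other 2D libraries at 0 for both genes.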

How the results depend on the processing

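The rise of Nr3c2 kept its direction in all 16 alternative settings, and its log2 difference ranged from 2.06 to 4.13. The calls of lower receptors were less firm. Against 2 in the fit over all libraries, 0 to 3 receptors were called lower when 1 library was left out (3 without the 3D library of mouse 1), 1 by the fold rule, and 0 without the 2D libraries of mice 3 and 4, a setting chosen after seeing the data. In mice 4 and 5 alone 2 were called lower, but these were Nr3c1 and Rarb (limma adjusted p = 0.0427 and 0.0391), and Rarg was lost. With the mouse as a replicate block, 0 receptors were called higher and 0 lower, and each of the 8 lists had 0 calls. The log2 difference of Esr1 reversed to -0.0205 with the mouse block and to -0.0193 in mice 4 and 5 alone, and it ranged from -0.0975 to 1.19 with 1 library left out. That of Pgr ranged from -0.0717 to 0.522 with 1 library left out. The reversals came without the 3D library of mouse 1 for Esr1 and without that of mouse 4 for Pgr. In mice 4 and 5 alone the calls were 4 of 7 for other receptors, 5 of 9 for coregulators, 0 of 3 for chaperones, 1 of 2 for retinoic acid response genes, 2 of 4 for enzymes and 5 of 6 for corticosteroid response genes, where Scnn1a was lost. By the fold rule they were 3 for other receptors, 3 for coregulators, 1 for chaperones and 4 for retinoic acid response genes. The retinoic acid response genes had 2 to 4 calls with 1 library left out and 4 without the 2D libraries of mice 3 and 4. Without quantile normalization 7 chaperones were called. The shares of the retinoic acid receptors moved by less than the spread between libraries on the quantile-normalized scale, also chosen after seeing the data. The cause of these changes was not tested. Esr2 and low values of Pgr are limited by depth.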
